A study of Homo sapiens with 24 samples.

Results

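The transcripts of 10 amino acid transporters of the plasma membrane were followed in SW1783, a human astrocytoma cell line, treated for 24 h with extracts of Schisandrae Fructus (SF), a dried fruit of traditional medicine. They are SLC7A11, SLC7A5, SLC3A2, SLC7A1, SLC7A6, SLC1A4, SLC1A5, SLC38A1, SLC38A2 and SLC6A9, and they were taken by gene symbol from the 60675 genes of the deposited table. All 10 passed the filter on low counts in every comparison. The cells received a hot water extract (WESF) at 20, 100 or 500 µg/mL, a 70% ethanol extract (EESF) at 12.4, 62 or 310 µg/mL, or the vehicle, 0.1% DMSO. Each of the 8 groups held 3 libraries, 24 in all. WESF and vehicle A formed batch A with 12 libraries, and EESF and vehicle B formed batch B with 12, so extract and batch cannot be told apart, and the doses of the extracts differ. The high doses were chosen in the study from a screen for cytotoxicity. In it 500 µg/mL of WESF was not toxic, and 310 µg/mL of EESF was at its 20% inhibitory concentration. The study describes both as the highest that were tolerable. The labels do not say whether the libraries of a group came from separate cultures, so the p-values measure the spread between these libraries, which may be technical. A library held between 18727797 and 32567395 counts.

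Amino acids cross the plasma membrane on carriers that work as a network. SLC3A2 (4F2hc) is the heavy chain that brings several light chains to the cell surface. Among these are SLC7A5 (LAT1), which exchanges leucine and other large neutral amino acids, SLC7A11 (xCT), which takes up cystine in exchange for glutamate, and SLC7A6 (y+LAT2), which exchanges arginine for glutamine. SLC7A1 (CAT1) is a carrier of cationic amino acids and needs no heavy chain. SLC1A5 (ASCT2) and SLC1A4 (ASCT1) exchange small neutral amino acids, SLC1A5 glutamine in particular. SLC38A1 (SNAT1) and SLC38A2 (SNAT2) accumulate glutamine and other small neutral amino acids with sodium, and SLC6A9 (GLYT1) takes up glycine. ATF4, the transcription factor of the integrated stress response, is a known activator of several of these genes through C/EBP-ATF response elements, and NRF2 (NFE2L2) is a known activator of SLC7A11 through antioxidant response elements.

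The promoters are shown because the genes moved unequally under the same extract. RefSeq windows on GRCh38.p14, from 250 bases before to 50 bases after a transcript start, were found by symbol for 9 of the 10 genes (15 windows, all genes but SLC7A11). The letters TGATGNAA of a C/EBP-ATF response element, searched on both strands, were in 5 of the 15 windows, 1 window each for 5 genes, and in 3.62% of all 35116 windows of this length. They are in capitals in the next 5 sequences, each on the strand of its gene, so that a match on the other strand reads TTNCATCA.
SLC1A5, chr19:46784893-46784922, minus strand: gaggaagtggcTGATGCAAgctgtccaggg
SLC1A4, chr2:64989381-64989410, plus strand: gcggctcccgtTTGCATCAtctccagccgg
SLC38A1, chr12:46266502-46266531, minus strand: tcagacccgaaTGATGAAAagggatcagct
SLC7A1, chr13:29595663-29595692, minus strand: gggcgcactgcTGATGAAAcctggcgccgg
SLC3A2, chr11:62881725-62881748, plus strand: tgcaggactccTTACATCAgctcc
In the GENCODE annotation the stretches of SLC1A5, SLC1A4 and SLC7A1 overlap an untranslated exon of the gene, that of SLC3A2 lies in coding sequence, and that of SLC38A1 lies in no exon. The match of SLC7A1 was in the window at the outer start of the gene. Those of SLC1A5, SLC1A4 and SLC3A2 were in windows of starts further inside the gene. The windows at the outer starts of these genes held no such match. Both windows of SLC38A1 lay inside its annotated gene. Which starts these cells use was not tested. The antioxidant response element letters TGACNNNGC were in 5 of the 15 windows and in 13.3% of all windows. The copy of SLC3A2, shown because its capitals also hold TGACTCA, the letters of an AP-1 site, was in the window of the last sequence above.
SLC3A2, chr11:62881652-62881681, plus strand: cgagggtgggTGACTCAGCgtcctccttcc
The E-box CACGTG was in 2 of the 15 windows and in 7.26% of all windows. The 150 bases before the start of SLC7A5, the gene with the largest rise among the 10 under WESF, hold one, in capitals. The 150 bases before the start of SLC38A2, the only one of the 10 that was a downregulated DEG, hold no match to any of these letters. The window of SLC6A9, an upregulated DEG at the high dose of both extracts, holds none either. SLC7A6, which did not pass the test at either high dose, holds matches to TGACNNNGC. The first bases of the TGACNNNGC copy of SLC7A5 are the last of its stretch.
SLC7A5, chr16:87869508-87869657, minus strand: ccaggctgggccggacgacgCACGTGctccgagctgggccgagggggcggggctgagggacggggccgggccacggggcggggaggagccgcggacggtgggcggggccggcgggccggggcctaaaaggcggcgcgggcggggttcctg
SLC38A2, chr12:46372774-46372923, minus strand: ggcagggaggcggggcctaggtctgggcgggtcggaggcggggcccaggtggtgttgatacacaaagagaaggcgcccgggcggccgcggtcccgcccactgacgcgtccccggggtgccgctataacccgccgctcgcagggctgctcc
A match of letters is a description and not a site of binding.

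Levels are given as normalized CPM, CPM being a gene's counts relative to the TMM-scaled size of its library, and between genes per kilobase of exon. In the 6 vehicle libraries SLC1A5 had the highest level, with a median of 95.5 CPM per kilobase (90.8 to 98.8), above that of 97.9% of the genes tested. SLC38A2 followed with 58.9 (54.9 to 64.3) and SLC7A5 with 45.9 (44.1 to 46.5) CPM per kilobase. SLC3A2 had 24.3, SLC7A1 21.7, SLC7A11 13.9, SLC38A1 12.8, SLC6A9 8.70 and SLC7A6 7.70 CPM per kilobase, and SLC1A4 had the lowest level, 5.05 (4.83 to 5.29). In this order the libraries of SLC3A2 and SLC7A1, of SLC7A11 and SLC38A1, and of SLC6A9 and SLC7A6 overlapped, and those of the other neighbours did not. The vehicles of the batches were close to each other. Of the 10 genes, 0 had an adjusted p under 0.05 in vehicle B against vehicle A, as had 0 of all 13001 genes tested (0%), although 371 genes had an unadjusted p under 0.05. With the replicate number of the vehicles as a block 3.68% of all genes passed, and among the 10 only SLC38A2, at a log2 fold change of 0.07 (adjusted p = 0.0283).

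The line was checked against astrocytic markers. In the vehicle libraries VIM (4780 to 4942 CPM), CD44 (2707 to 2969 CPM) and SOX9 (76.6 to 91.9 CPM) were well above background and NES was low (5.83 to 8.26 CPM). GFAP reached at most 0.221 CPM, ALDH1L1 0.145, S100B 0.112, SOX2 0.0516 and AQP4 0.0512 CPM, so the defining markers of astrocytes were at or near 0. The collagen genes COL1A1 (3672 to 3880 CPM) and COL1A2 (1751 to 1859 CPM) were abundant. Of the other markers, CD68 had 177.0 to 212.0 CPM, SYT1 23.2 to 29.1, PTPRC 8.87 to 10.7, MBP 6.34 to 7.52 and PECAM1 0.67 to 1.39 CPM, RBFOX3, EPCAM and KRT5 reached at most 0.205, 0.102 and 0.0779 CPM, and CD3E and MOG were at 0. At the high dose of WESF the sum of the 9 astrocytic markers was 6475 to 6717 CPM against 7667 to 7811 in vehicle A, and with EESF it was 7258 to 7504 against 7803 to 7980 in vehicle B. These sums are mostly VIM and CD44. VIM did not pass the test (log2 fold changes of -0.01 with WESF and 0.10 with EESF), whereas CD44 (-0.72 and -0.48), SOX9 (-0.69 and -0.82) and NES (-1.21 and -0.45) fell. The sum of the 12 markers of other cells, whose most abundant gene was COL1A1, was 5182 to 5483 CPM at the high dose of WESF against 5693 to 5947 in vehicle A. With EESF it was 5492 to 5704 against 5670 to 5953 in vehicle B. The markers in this sum did not move together. COL1A1 fell from 3797 ± 86.9 to 2940 ± 94.5 CPM with WESF and from 3798 ± 111.0 to 3403 ± 75.6 CPM with EESF (SD, n = 3), and PTPRC (log2 fold changes of -2.26 and -2.38) and SYT1 (-0.91 and -1.18) fell too. MBP rose by 0.89 and 0.55 on the log2 scale and CD68 by 0.29 and 0.43. With WESF, COL1A2 rose by 0.22, RBFOX3, at most 0.838 CPM, by 2.60, and PECAM1 fell by 0.76, whereas with EESF COL1A2 and PECAM1 did not pass the test and RBFOX3 was not tested. The part of these shifts in the transporter results was not tested.

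The comparison of each dose with its vehicle asked which transporters respond to the extracts. At the high dose of WESF, 8 of the 10 transcripts rose and none fell, and the exchangers of leucine, glutamine and cystine and the glycine carrier rose most. SLC7A5, SLC1A5, SLC7A11 and SLC6A9 were upregulated DEGs, that is, genes whose adjusted p was below 0.05 and whose level changed by more than 1.5-fold. SLC3A2, SLC1A4, SLC38A1 and SLC7A1 rose by less than this fold. The median log2 fold change of the 10 was 0.52, against 0.00 over all 13129 genes tested. Among all genes tested, 11.1% were upregulated and 13% downregulated DEGs, and with no threshold on the fold change 34.3% rose and 34.6% fell. In bulk RNA such as this, fewer cells of a kind and less RNA per cell cannot be told apart. The summed level of the 10 transcripts was 2410 ± 74.1 CPM at the high dose against 1623 ± 51.6 CPM in vehicle A (SD, n = 3). The share of counts from mitochondrial genes was 7.794% to 9.599% at the high dose of WESF against 10.32% to 10.57% in vehicle A, and its part in these results was not tested.

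**Figure D1:**
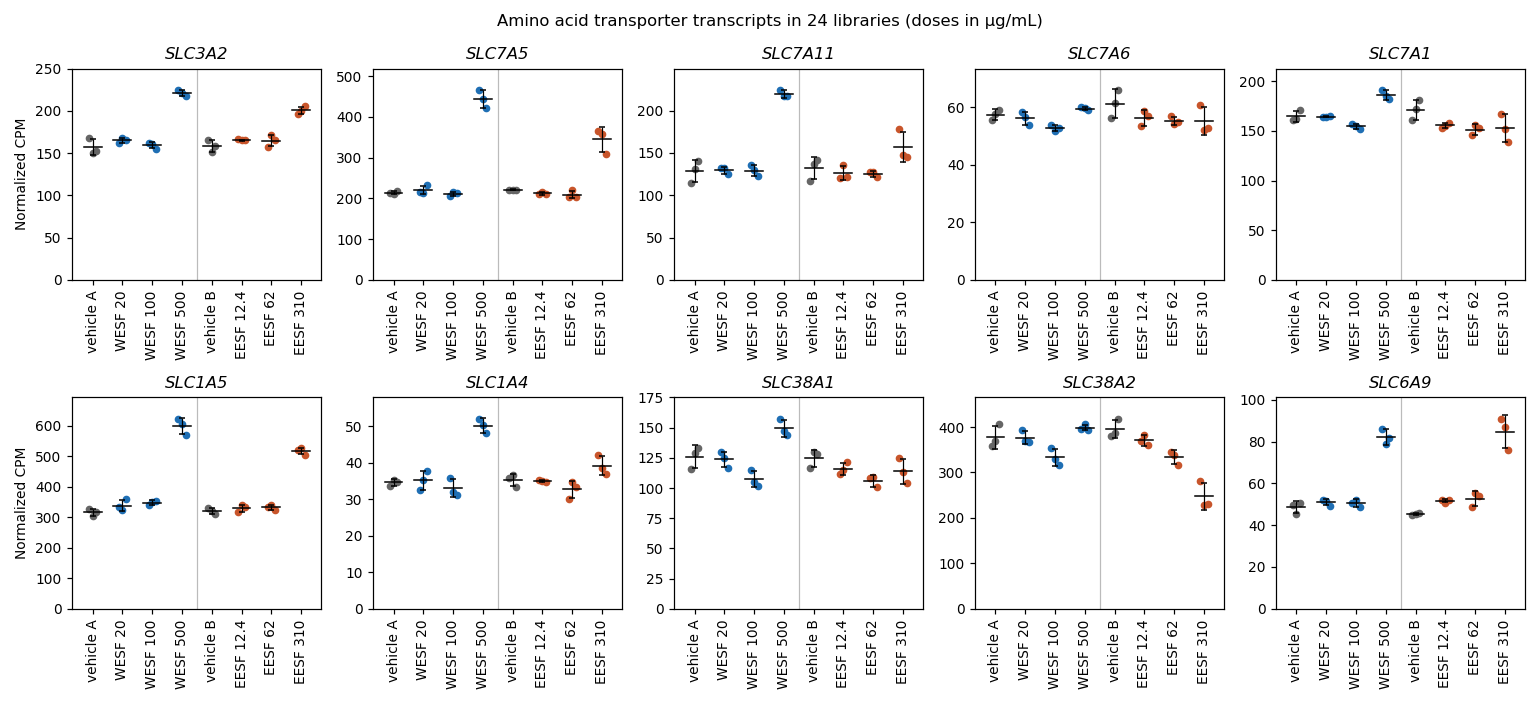
Normalized CPM (vertical axes, from 0) of the 10 transporters in the 8 groups (horizontal axes, doses in µg/mL), with 1 point per library, a line at the mean and bars of 1 SD (n = 3). The low and medium doses lie near the vehicles, most genes step up at WESF 500, and SLC38A2 steps down at EESF 310.

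The heavy chain and its partners differed in size of change. SLC7A5 (ENSG00000103257, chromosome 16 from 87830023 to 87869507 on GRCh38) had 212.9, 210.1 and 217.5 CPM in vehicle A and 466.5, 442.6 and 421.2 CPM at the high dose of WESF. The groups did not overlap, and every treated library stood far above the vehicle. The log2 fold change was 1.05 (SE 0.046, adjusted p = 5.07e-12), the largest of the 10. SLC7A11 (ENSG00000151012, chromosome 4 from 138164097 to 138242349) had 114.2, 131.1 and 140.4 CPM in vehicle A and 224.7, 217.8 and 216.7 CPM at the high dose. All treated libraries were above all vehicle libraries, although the vehicle libraries were spread more widely than those of SLC7A5. The log2 fold change was 0.77 (SE 0.060, adjusted p = 6.27e-09). SLC3A2 (ENSG00000168003, chromosome 11 from 62856004 to 62888880), which both need, rose by less. It had 167.8, 150.2 and 152.4 CPM in vehicle A and 225.1, 221.1 and 217.6 CPM at the high dose, without overlap (log2 fold change 0.50, SE 0.047, adjusted p = 6.86e-08). SLC7A6 (ENSG00000103064, chromosome 16 from 68264516 to 68301823), another partner of the heavy chain, had 55.44, 57.65 and 59.24 CPM in vehicle A and 59.97, 59.73 and 59.09 CPM at the high dose. The groups overlapped, and the log2 fold change was 0.05 (SE 0.047, adjusted p = 0.33).

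Both exchangers of the SLC1 family rose. SLC1A5 (ENSG00000105281, chromosome 19 from 46774883 to 46788594) had 326.7, 302.5 and 317.5 CPM in vehicle A and 623.0, 604.1 and 569.8 CPM at the high dose of WESF. The groups were far apart, and the log2 fold change was 0.92 (SE 0.047, adjusted p = 2.58e-11). SLC1A4 (ENSG00000115902, chromosome 2 from 64988477 to 65023865) had 33.69, 35.37 and 34.78 CPM in vehicle A and 52.13, 50.27 and 48.23 CPM at the high dose. The groups did not overlap, and the fold of 1.45 was just under the threshold for a DEG (adjusted p = 7.31e-08). The glycine carrier SLC6A9 (ENSG00000196517, chromosome 1 from 43991500 to 44031467) had 49.65, 45.21 and 50.71 CPM in vehicle A and 86.05, 78.80 and 81.78 CPM at the high dose. Again no treated library came near the vehicle, and the log2 fold change was 0.76 (SE 0.053, adjusted p = 1.63e-09).

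The SLC38 carriers and the cationic carrier SLC7A1 changed little under WESF. SLC38A1 (ENSG00000111371, chromosome 12 from 46183063 to 46270017) went from 115.4, 129.1 and 133.3 CPM to 157.5, 146.9 and 144.2 CPM, or 0.25 on the log2 scale (SE 0.055, adjusted p = 0.000764). SLC7A1 (ENSG00000139514, chromosome 13 from 29509414 to 29595688) went from 160.7, 162.2 and 170.9 CPM to 191.5, 185.1 and 181.7 CPM, or 0.18 on the log2 scale (SE 0.044, adjusted p = 0.00198). In neither did the groups overlap. SLC38A2 (ENSG00000134294, chromosome 12 from 46358188 to 46372773) had 357.2, 369.1 and 405.8 CPM in vehicle A and 396.6, 405.8 and 394.4 CPM at the high dose. The groups overlapped (log2 fold change 0.08, SE 0.049, adjusted p = 0.165), and without replicate 3 of vehicle A the adjusted p was 0.0134 at a log2 fold change of 0.13.

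**Figure D2:**
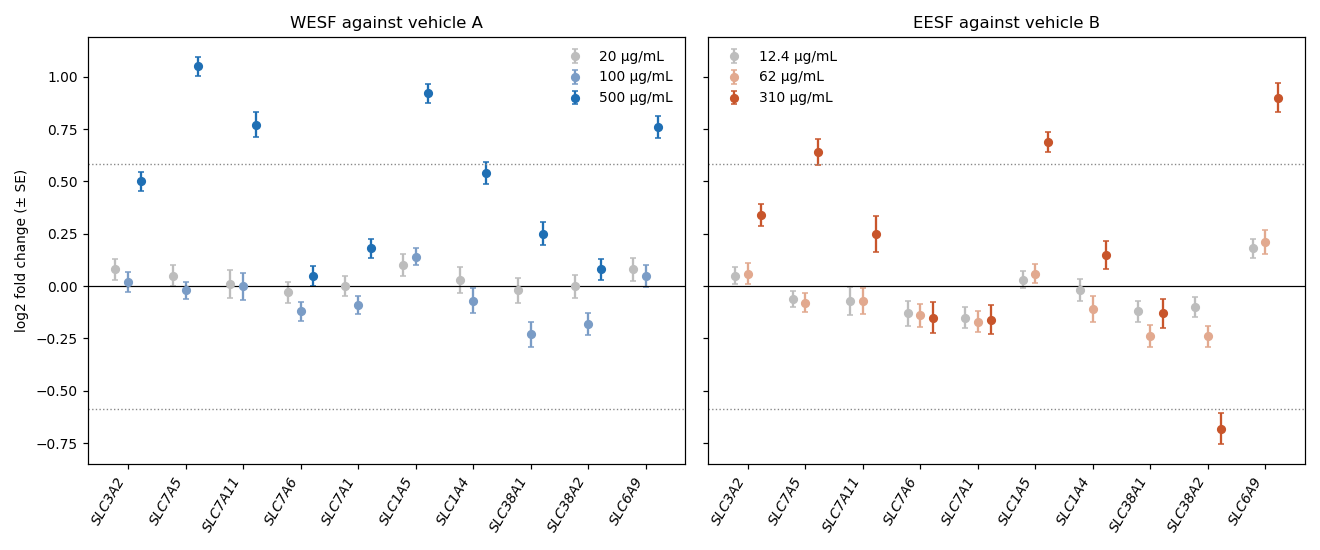
Log2 fold change (vertical axis, ± SE, 3 libraries per group) of the 10 transporters at each dose of WESF (left) and EESF (right) against the vehicle of the batch. Dotted lines mark a fold of 1.5 either way (0.585 on the log2 scale), which 4 genes passed at the high dose of each extract and none at the lower doses.

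At the high dose of EESF 5 of the 10 transcripts rose and 1 fell. SLC6A9, SLC1A5 and SLC7A5 were upregulated DEGs, SLC38A2 was a downregulated DEG, and SLC3A2 and SLC7A11 rose by less than 1.5-fold. The median log2 fold change of the 10 was 0.20, against 0.01 over all 13092 genes tested, of which 8.21% were upregulated and 9.17% downregulated DEGs. With no threshold on the fold change 29.3% of all genes rose and 28.7% fell. The summed level of the 10 was 1912 ± 111.0 CPM at the high dose against 1665 ± 39.2 CPM in vehicle B (SD, n = 3). Mitochondrial genes held 11.2% to 11.96% of counts there and 11.6% to 11.92% in vehicle B.

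SLC6A9 had the largest rise under EESF, from 45.11, 45.37 and 45.94 CPM in vehicle B to 91.02, 87.20 and 75.80 CPM at the high dose. The treated libraries were spread more widely than the vehicle libraries but did not meet them, and the log2 fold change was 0.90 (SE 0.069, adjusted p = 5.79e-07). SLC1A5 went from 329.4, 319.2 and 311.5 CPM to 518.5, 525.8 and 504.9 CPM, without overlap (log2 fold change 0.69, SE 0.048, adjusted p = 2.61e-07). SLC7A5 went from 221.3, 220.1 and 221.4 CPM to 365.6, 358.9 and 309.5 CPM, with replicate 3 the lowest of the treated libraries (log2 fold change 0.64, SE 0.063, adjusted p = 3.87e-06). The heavy chain SLC3A2 had 165.6, 151.4 and 158.6 CPM in vehicle B and 196.5, 199.5 and 205.5 CPM at the high dose. These groups did not overlap, and the log2 fold change was 0.34 (SE 0.052, adjusted p = 0.000132).

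The cystine carrier SLC7A11 had 117.1, 136.5 and 142.2 CPM in vehicle B and 177.7, 147.8 and 145.3 CPM at the high dose of EESF. Replicate 1 of the treated group was well above the other two, which lay just above the highest vehicle library. The log2 fold change was 0.25 (SE 0.086, adjusted p = 0.0247), and it lost the call without that library (0.15, adjusted p = 0.0877), without replicate 1 of vehicle B (0.16, adjusted p = 0.113) and without replicate 2 of vehicle B (0.27, adjusted p = 0.056).

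SLC38A2 fell at the high dose of EESF. It had 380.9, 386.4 and 418.6 CPM in vehicle B and 281.7, 229.3 and 230.5 CPM at the high dose. Every treated library was below every vehicle library, and the log2 fold change was -0.68 (SE 0.076, adjusted p = 1.15e-05). Its relative SLC38A1 had 116.7, 129.9 and 127.8 CPM in vehicle B and 124.7, 113.0 and 104.1 CPM at the high dose, which overlapped (log2 fold change -0.13, SE 0.069, adjusted p = 0.119). The other transcripts that did not pass were SLC1A4 (0.15, adjusted p = 0.07), SLC7A6 (-0.15, adjusted p = 0.0977) and SLC7A1 (-0.16, adjusted p = 0.0602). SLC1A4 went from 35.83, 36.73 and 33.49 CPM to 42.27, 38.47 and 37.02 CPM. Its treated libraries all lay above the vehicle, whereas those of SLC7A1 (138.8 to 167.3 against 160.7 to 181.0 CPM) and SLC7A6 (51.96 to 60.72 against 56.40 to 66.15 CPM) overlapped it. Without replicate 1 of the high dose, SLC7A1 (-0.23, adjusted p = 0.00615), SLC7A6 (-0.23, adjusted p = 0.0115) and SLC38A1 (-0.20, adjusted p = 0.0129) passed the test as lower, and the same 3 passed without replicate 1 of vehicle B (adjusted p = 0.0249, 0.0279 and 0.0431). SLC1A4 passed as higher without replicate 3 of the high dose (0.19, adjusted p = 0.0476). With all groups in the fit SLC7A1 (adjusted p = 0.0212) and SLC7A6 (adjusted p = 0.0468) passed as lower and SLC1A4 (adjusted p = 0.0489) as higher. With DESeq2 SLC7A1 passed as lower (adjusted p = 0.0433). Over all alternatives the log2 fold change was between 0.09 and 0.19 for SLC1A4 and between -0.20 and -0.08 for SLC38A1. It was between -0.23 and -0.10 for SLC7A6 and between -0.23 and -0.11 for SLC7A1. The adjusted p reached 0.252, 0.374, 0.326 and 0.218 in this order.

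At the medium and low doses no transporter was a DEG. At the medium dose of WESF, where 0.275% of all genes were DEGs and 2.2% fell with an adjusted p under 0.05, SLC38A1 fell by 0.23 on the log2 scale (SE 0.059, adjusted p = 0.0426), from 115.4, 129.1 and 133.3 CPM in vehicle A to 115.1, 105.3 and 101.7 CPM. The highest treated library lay just under the lowest vehicle library, and the call was lost without any one of 4 libraries, replicates 2 and 3 of both groups (adjusted p between 0.125 and 0.22). Without replicate 1 of vehicle A 4 of the 10 passed, and without replicate 1 of the medium dose 2. These counts come from other fits than the shares above, so they cannot be set beside them. At the medium dose the markers SYT1 (-0.48 on the log2 scale), SOX9 (-0.24) and PECAM1 (-1.05) fell too. The share of counts from mitochondrial genes was 8.726% to 10.05%, against 10.32% to 10.57% in vehicle A. The part of these shifts in the calls was not tested. At the low dose of WESF 0 of the 10 and 0 of all 13131 genes tested (0%) passed edgeR's test, and 470 genes had an unadjusted p under 0.05.

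With EESF 4 of the 10 passed the test at the medium dose and 1 at the low dose. Without replicate 1 of vehicle B 6 passed at either dose (over all alternatives 1 to 6 and 0 to 6). The shares over all genes in this paragraph are from the fits with all libraries, so the counts of other fits cannot be set beside them. At the medium dose 0.755% of all genes were DEGs, 6.9% rose and 8.48% fell. There the carriers SLC38A1, SLC38A2 and SLC7A1 fell and SLC6A9 rose. The markers SYT1 (-0.32 on the log2 scale), SOX9 (-0.23) and PTPRC (-0.35) fell at this dose too. The share of counts from mitochondrial genes was 11.51% to 14.07%, against 11.6% to 11.92% in vehicle B. The part of these shifts in the calls was not tested. SLC38A2 had 345.9, 339.5 and 316.8 CPM, below all vehicle libraries (log2 fold change -0.24, SE 0.051, adjusted p = 0.00562). SLC38A1 had 108.0, 108.9 and 100.5 CPM (-0.24, SE 0.052, adjusted p = 0.00718) and SLC7A1 145.5, 155.6 and 153.1 CPM (-0.17, SE 0.051, adjusted p = 0.0295). Both were below their vehicle libraries too. SLC6A9 was higher at the medium dose (48.71, 55.41 and 53.82 CPM, log2 fold change 0.21, adjusted p = 0.018) and at the low dose (52.04, 50.83 and 52.23 CPM, 0.18, adjusted p = 0.0273), where 0.271% of all genes were DEGs and 3.11% rose. It was the only one of the 10 that passed the test at all 3 doses of EESF. Its vehicle B libraries (45.11 to 45.94 CPM) lay closer together than those of vehicle A (45.21 to 50.71 CPM). At the low dose of WESF it had 49.37 to 52.20 CPM and did not pass the test (log2 fold change 0.08). Of these calls the one of SLC38A2 held without each library in turn (adjusted p at most 0.0451 over all alternatives). The others did not hold, with adjusted p of up to 0.0573 for SLC38A1, 0.123 for SLC7A1, and 0.0873 and 0.108 for SLC6A9 at the medium and low dose. The libraries were, for SLC38A1, replicate 2 of vehicle B and replicate 3 of the medium dose, for SLC7A1, replicates 2 and 3 of vehicle B and each library of the medium dose, and for SLC6A9 at the medium dose, replicate 2 of vehicle B and replicates 2 and 3 of the medium dose. At the low dose they were replicates 2 and 3 of vehicle B and each treated library.

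The high dose was also set against the low dose of the same batch, which leaves out the vehicle. With WESF the same 4 genes were upregulated DEGs, among 10.3% of all genes, with log2 fold changes of 1.01 for SLC7A5, 0.82 for SLC1A5, 0.76 for SLC7A11 and 0.69 for SLC6A9. With EESF 6.45% of all genes were upregulated and 8.15% downregulated DEGs. SLC6A9 (0.71), SLC7A5 (0.70) and SLC1A5 (0.65) were upregulated DEGs, and SLC38A2 fell by 0.58 on the log2 scale (adjusted p = 1.22e-05), just under the fold threshold. SLC7A11 rose by 0.32 (adjusted p = 0.00216) in this comparison.

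To ask whether the extracts differed, the log2 fold change under WESF was subtracted from that under EESF at each dose and the result was tested. At the high dose 7 of the 10 differed, all lower with EESF, where 13.3% of all 13376 genes tested differed in this direction and 12.7% in the other. SLC38A2 passed the fold threshold too, as did 1.75% of all genes in its direction, with a difference of -0.76 (SE 0.099, adjusted p = 0.000109). It fell with EESF and had a log2 fold change of 0.08 with WESF. SLC7A11 also passed the fold threshold without replicate 3 of vehicle A (-0.59), replicate 1 of vehicle B (-0.60) or replicate 1 of high-dose EESF (-0.62). With all libraries the difference was -0.52 for SLC7A11 (SE 0.12, adjusted p = 0.00511), -0.41 for SLC7A5 (SE 0.080, adjusted p = 0.00191), -0.38 for SLC1A4 (SE 0.082, adjusted p = 0.00331) and -0.23 for SLC1A5 (SE 0.064, adjusted p = 0.0143). SLC38A1 (-0.38, SE 0.097, adjusted p = 0.00999) and SLC7A1 (-0.34, SE 0.086, adjusted p = 0.00955) rose with WESF and did not pass the test with EESF. The differences of SLC6A9 (0.14, SE 0.091, adjusted p = 0.286), SLC3A2 (-0.16, SE 0.068, adjusted p = 0.103) and SLC7A6 (-0.20, SE 0.091, adjusted p = 0.108) did not pass. SLC3A2 passed with the replicate number of the vehicles as a block (adjusted p = 0.035) and without replicate 1 of vehicle A (adjusted p = 0.0373), and SLC7A6 passed without replicate 1 of vehicle B (adjusted p = 0.0342) or of high-dose EESF (adjusted p = 0.0111). With all groups in the fit both passed (adjusted p = 0.0494 for SLC3A2 and 0.0499 for SLC7A6). At the medium and low doses 0 of the 10 differed between the extracts, where 0.203% and 0.00756% of all genes did.

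**Figure D3:**
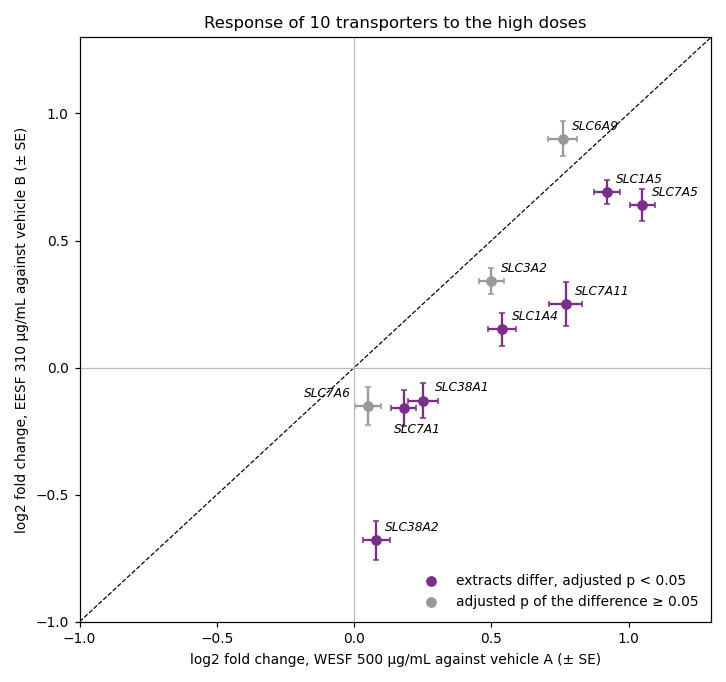
Log2 fold change of the 10 transporters at the high dose of WESF (horizontal axis, 500 µg/mL) and of EESF (vertical axis, 310 µg/mL), each with its SE, with a dashed line where both are equal. SLC6A9 lies above the line and the others below it, and SLC38A2 lies farthest from it, at 0.08 and -0.68.

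Of 33 other amino acid transporters of the plasma membrane, 13 were tested at the high dose of WESF, of which 4 rose and 6 fell, and 12 at the high dose of EESF, of which 3 rose and 4 fell. Over all genes tested 34.3% rose and 34.6% fell with WESF, and 29.3% rose and 28.7% fell with EESF, and most of these counts lie near those shares. Their median log2 fold changes were -0.15 and -0.08. The largest change was in SLC38A4, a sodium-coupled carrier related to SLC38A2, which went from 8.22 ± 0.638 to 2.06 ± 0.189 CPM (SD, n = 3) with WESF (log2 fold change -1.99, adjusted p = 6.39e-10) and from 8.87 ± 1.28 to 2.59 ± 0.507 CPM with EESF (-1.78, adjusted p = 1.4e-06). SLC1A3 (EAAT1), the glutamate carrier known from astrocytes, went from 31.8 ± 1.67 to 10.4 ± 0.635 CPM with WESF (-1.62, adjusted p = 4.06e-12) and from 31.8 ± 1.04 to 12.1 ± 0.850 CPM with EESF (-1.39, adjusted p = 3.07e-08). SLC1A1 (EAAT3), another glutamate carrier, had a log2 fold change of -0.08 with WESF (adjusted p = 0.294) and fell by 0.22 with EESF.

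Among those that rose, SLC6A6, the taurine carrier, went from 85.7 ± 5.11 to 181.0 ± 2.85 CPM with WESF (1.07, adjusted p = 7.58e-12) and from 88.1 ± 5.26 to 127.0 ± 8.83 CPM with EESF, where it stayed under the fold threshold, a difference between the extracts of -0.55 (SE 0.083, adjusted p = 0.000324). SLC7A7, a light chain of SLC3A2, was low but rose from 0.460 ± 0.153 to 1.19 ± 0.270 CPM with WESF and from 0.561 ± 0.234 to 1.09 ± 0.090 CPM with EESF. SLC43A1 (LAT3), a carrier of large neutral amino acids, rose by 0.88 and 0.64 on the log2 scale. SLC6A15, a carrier of branched-chain amino acids, rose by 0.66 with WESF. Both were low, with means of 1.60 and 1.02 CPM in vehicle A and 2.95 and 1.62 CPM at the high dose of WESF. SLC7A8 (LAT2), the other exchanger of large neutral amino acids on SLC3A2, went the other way from SLC7A5. It fell from 12.2 ± 1.27 to 6.82 ± 0.601 CPM with WESF (-0.83, adjusted p = 1.2e-06) and from 12.3 ± 0.647 to a mean of 9.47 CPM, at least 8.60 in each library, with EESF (-0.37, adjusted p = 0.00823).

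**Figure D4:**
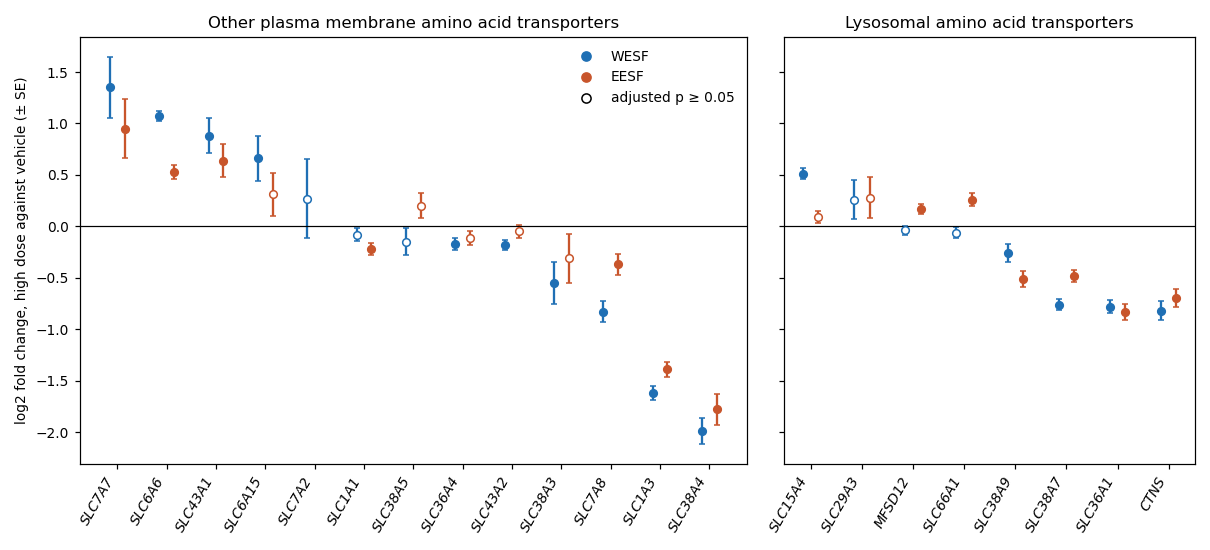
Log2 fold change (vertical axis, ± SE, 3 libraries per group) at the high dose of WESF and EESF of the other plasma membrane transporters (left) and the lysosomal transporters (right) that were tested, with open points where the adjusted p was 0.05 or more. SLC38A4 and SLC1A3 lie lowest at both doses and SLC7A7 and SLC6A6 highest with WESF.

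Of 9 transporters of the lysosome 8 were tested, of which 1 rose and 4 fell with WESF and 2 rose and 4 fell with EESF (medians -0.16 and -0.19), beside shares over all genes of 34.3% and 34.6% with WESF and 29.3% and 28.7% with EESF. SLC36A1 (PAT1), which exports small amino acids from lysosomes, fell by 0.78 and 0.83 on the log2 scale, the cystine exporter CTNS by 0.82 and 0.70, and the glutamine exporter SLC38A7 by 0.76 and 0.48. Of 13 genes of amino acid sensing by mTORC1 and GCN2, 5 rose and 5 fell with WESF and 2 rose and 6 fell with EESF (medians -0.04 and -0.15), several of these counts being near the same shares. CASTOR1, an arginine sensor, was low but rose by 0.67 (mean 1.62 to 2.54 CPM) and 0.71 (mean 1.52 to 2.48 CPM). SAR1B, a leucine sensor, rose by 0.66 and 0.28. The paralog CASTOR2 had -0.30 and -0.71, and SESN3 had -0.04 (adjusted p = 0.714) and -0.61.

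The transcripts of the regulators named above were measured in the same libraries, but not their proteins or activity. ATF4 rose from 141.0 ± 5.44 to 236.0 ± 5.12 CPM with WESF (log2 fold change 0.74, adjusted p = 1.95e-10) and from 142.0 ± 6.71 to 204.0 ± 11.1 CPM with EESF (0.52, adjusted p = 9.2e-06; SD, n = 3), a difference between the extracts of -0.22 (adjusted p = 0.0325). Of 14 genes of the integrated stress response, 13 rose and 1 fell at the high dose of each extract, with a median log2 fold change of 0.91 with WESF and 0.77 with EESF, and the gene that fell was ATF5. Over all genes tested 34.3% rose and 34.6% fell with WESF, and 29.3% rose and 28.7% fell with EESF. DDIT4, an inhibitor of mTORC1, rose by 1.91 and 1.02, the pseudokinase TRIB3 by 1.84 and 1.42, SESN2, a leucine sensor, by 1.65 and 1.10, and CHAC1, which degrades glutathione, by 1.62 and 1.00. NFE2L2 had log2 fold changes of 0.18 (adjusted p = 0.00263) and 0.12 (adjusted p = 0.0651). Of 11 NRF2 genes, NFE2L2 included, 8 rose and 3 fell with WESF and 7 rose and 1 fell with EESF (medians 0.25 and 0.45), and the share that fell with WESF is near that of all genes. HMOX1, which degrades haem, rose by 0.99 and 0.53, TXNRD1, a thioredoxin reductase, by 0.83 and 0.65, GCLC, of glutathione synthesis, by 0.74 and 0.45, and SRXN1, a sulfiredoxin, by 0.63 and 0.68. Which of these factors acts on the transporters was not tested.

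The patterns most like those of 3 of the transporters were looked up over all 24 libraries, as log2 CPM relative to the vehicle of the batch, by Pearson's r, which is given as a description. The high-dose libraries stood apart and weigh most in it, and all genes share the same libraries. For SLC7A5 they were KDM5C (0.988), SAMD4A (0.987) and SLC31A1 (0.987), and for SLC1A5 they were ASB1, BET1L and AMPD2 (0.99 each). For SLC7A11 they were NUP58 (0.986), NUFIP2 (0.985) and ZNF451 (0.982).

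Some of the 10 genes share exon sequence with a gene on the opposite strand. The kit was stranded, but the strand setting of the counting was not given in the sources used here. SLC7A11 shares 865 bases with SLC7A11-AS1 and SLC7A6 shares 3372 bases with SLC7A6OS, so reads of each pair could have been divided between them. SLC7A6OS, itself a protein-coding gene, rose by 0.79 with WESF and 0.78 with EESF on the log2 scale, where SLC7A6 did not pass the test. SLC7A11-AS1 had at most 6.10 CPM in any library, against at least 114.2 CPM for SLC7A11. SLC6A9 shares 413 bases with CCDC24 and SLC1A5 shares 780 with ENSG00000275719, whose highest counts in a library were 275.0 and 81.24.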

How the data were processed

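RNA of SW1783 cells was sequenced as 100 bp paired ends on a stranded library. The authors used FastQC 0.11.9, Trim Galore 0.6.6, STAR 2.7.9a and RSEM 1.3.3 on GRCh38 and deposited RSEM's expected counts per gene, not normalized, of which 10.9% are not whole. Depth per group was 26447834 to 28461841 counts (vehicle A), 23475221 to 30288310, 23728933 to 25276388 and 20731749 to 24692309 (low, medium and high WESF), 18727797 to 20465712 (vehicle B), and 20713014 to 26068434, 25121561 to 28712898 and 29659110 to 32567395 (low, medium and high EESF).

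Expected counts were rounded, protein-coding genes of GENCODE 44 that passed filterByExpr were kept, and each fit held the libraries compared, with edgeR 4.0.16 in R 4.3.3 (TMM, quasi-likelihood test, 2-sided, Benjamini-Hochberg adjustment over all genes tested). DEGs needed an adjusted p below 0.05 and a change over 1.5-fold, the thresholds of the study, which used DESeq2. The script was tested on simulated data. Alternatives were DESeq2 1.42.0, its size factors, no filter, all genes, all groups in 1 fit, a replicate block and leaving out each library. A block on the vehicles was added after seeing the data, because same-numbered vehicle libraries deviated together (r = 0.36, 0.16 and 0.26). Named genes were the 10 members and, per other list, up to 8 (plasma membrane) or 4 (others) DEGs with the largest change at a high dose, besides ATF4 and NFE2L2. SLC1A1, ATF5 and the overlapping genes were named after their values were seen. Genes most alike had at least 10 CPM. Those for SLC38A2 are not reported here. The members and lists were chosen with earlier results of these data known.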

Additional observations from a re-analysis of the deposited data

Results flagged for a closer look

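In the high-dose libraries 7 transporters responded unequally to the extracts, measured as log2 fold change under EESF minus that under WESF, with adjusted p under 0.05. All 7 were lower with EESF, as were 13.3% of all 13376 genes tested, while 12.7% were higher. The differences were -0.76 for SLC38A2, -0.52 for SLC7A11, -0.41 for SLC7A5, -0.38 for SLC1A4, -0.38 for SLC38A1, -0.34 for SLC7A1 and -0.23 for SLC1A5. The doses differ between the extracts, and extract and batch cannot be told apart.

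SLC7A11-AS1, a long noncoding RNA on the opposite strand of SLC7A11 that was outside the comparisons of protein-coding genes, was above its vehicle at both high doses. It had 1.29, 1.77 and 2.14 CPM in vehicle A and 6.10, 4.68 and 4.51 CPM at the high dose of WESF, or 1.56 on the log2 scale (SE 0.186, adjusted p = 3.32e-06 by edgeR over all genes of the table). In vehicle B it had 1.49, 1.23 and 1.90 CPM and at the high dose of EESF 2.26, 2.75 and 1.99 CPM, a log2 fold change of 0.59 (adjusted p = 0.0338). Whether reads of SLC7A11 reached it was not tested.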

How the results depend on the processing

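The number of DEGs among the 10 transporters was 4 at each high dose under every alternative run. The number that differed between the extracts at the high dose by more than 1.5-fold, 1, was between 1 and 2 when single libraries were left out, and it was 2 without replicate 3 of vehicle A, replicate 1 of vehicle B or replicate 1 of high-dose EESF. Over 51 results of single transporters and 682 alternatives, 634 kept the verdict of the test, 30 lost the call, 18 gained it and 0 changed direction. The 51 were all 10 transporters at the high doses against vehicle and in the high-dose difference between the extracts. For the other comparisons they were only the transporters that passed, so calls gained by the rest are not counted there. With no threshold on the fold change 7 differed between the extracts at the high dose, and 7 to 9 over the alternatives. Other counts with no threshold on the fold change moved more. They went from 6 to 9 at the high dose of EESF with all groups in the fit. At the medium dose of WESF they went from 1 to 3 with DESeq2 (0 to 4 over all alternatives). Over all alternatives they went from 4 to between 1 and 6 at the medium dose of EESF. At the low dose of EESF they went from 1 to between 0 and 6. No share over all genes was taken from these alternatives, so their counts cannot be set beside the shares given above. Same-numbered treated and vehicle libraries correlated at between -0.26 and 0.12. Such values cannot show whether these libraries were prepared together, and the labels do not say. With the replicate block the high doses gave 4 DEGs each, and SLC7A11 with EESF (adjusted p = 0.0571) and SLC38A1 at the medium dose of WESF (adjusted p = 0.105) lost their calls. SLC38A1 also lost it with all genes of the table (0.0553) and SLC6A9 at the low dose of EESF with all groups in the fit (0.111). The cause was not tested. Transcripts removed by the filter on low counts, such as SLC7A10, have no result at this depth.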
